A study of Bos taurus with 6 samples.

Results

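The 10 genes described here mark the cells that line blood and lymph vessels or carry the VEGF and angiopoietin signals to them. They were taken by symbol from the deposited table of genes, 10 of the 47249 genes listed, and each symbol occurred once. PECAM1, CDH5 and VWF are adhesion and junction genes of endothelial cells, KDR, FLT1 and FLT4 are VEGF receptors, TEK and TIE1 are receptors of the angiopoietin system, and VEGFA and VEGFC are ligands. By the paper's account, the libraries were made from total RNA of the testis after removal of ribosomal RNA. There was 1 library per animal, from untreated Wandong cattle (Bos taurus). There were 3 immature calves aged 3 ± 0.24 months and 3 andrologically mature bulls aged 3 ± 0.014 years, numbered here from 1 to 3 within each group as in the labels. The pieces were cut from the middle of the testis after the tunica had been removed.

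In the testis, blood vessels run in the interstitium between the seminiferous tubules and do not enter the tubules. VEGFA signals mainly through KDR, whereas FLT1 binds VEGFA tightly and can act as a decoy for it. VEGFC acts chiefly through FLT4, the receptor of lymphatic endothelium. Angiopoietins bind TEK, and TIE1 is a partner of TEK with no ligand of its own in the classical view. In the testis, VEGFA is also made by somatic cells of the tubule and the interstitium, so its level is not a measure of vessels.

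Values are FPKM, fragment counts scaled by the length of the transcript and by the mapped fragments of the library, so that levels can be compared between genes. The tables hold no counts, so the depth behind a value is unknown and no counting interval was computed. Between 27164 and 38975 genes per library had a value above 0. Fold changes are differences of log2(FPKM + 1), bulls minus calves, from a linear model fitted with limma to the 18115 genes that reached an FPKM of 1 in 3 or more libraries. All 10 genes passed this filter. A gene was called if its p, adjusted by Benjamini-Hochberg over all genes tested, was below 0.05 and its log2 fold change was 1 or more in size, and SE is the standard error of that change. Adding 1 to the FPKM understates the change of low genes.

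The library labelled calf 3 lacked most of the defining genes of Sertoli and Leydig cells. Of 8 genes of Sertoli cells, 6 were lowest in it, and 3 of these (FSHR, WT1 and GATA4) were listed at 0. The other Sertoli cell genes, SOX9 (13.7) and CLU (423), lay below calf 1 and calf 2 but above every bull (9.99 to 10.8 and 247 to 260). The summed FPKM of 7 Leydig cell genes (9 entries) was 0.502, against 1169 to 2747 in the other libraries. All 10 genes of a list for oligodendrocytes, astrocytes and neurons were highest in calf 3, with a summed FPKM of 14955 against 66.2 to 156 elsewhere. The 10 genes and the counts over gene lists are therefore given with and without this library. In the bulls, 8 spermatid genes summed to an FPKM of 13463 to 15221, against 2.09 to 2.86 in the calves. In whole tissue, fewer endothelial cells and less RNA per endothelial cell cannot be told apart, and the part of the germ cells in the values below was not tested.

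VEGFA was the clearest difference among the 10 genes: all bulls lay below all calves. VEGFA (ENSBTAG00000005339, chromosome 23, 17281915 to 17297193) stood at an FPKM of 7.39, 4.72 and 13.6 in the calves (here and below in the order of their numbers), and at 1.35, 0.966 and 1.28 in the bulls. The log2 fold change was −2.02 (SE 0.36, adjusted p = 0.00400). Leaving out calf 3 gave −1.66 (SE 0.21, adjusted p = 0.000547), and the mean of calf 1 and calf 2 was 5.05-fold the mean of the bulls. The call held in all 20 settings in which the gene was tested, with log2 fold changes from −2.82 to −1.66 and adjusted p from 0.000198 to 0.0222. Genes of Sertoli cells, a source of VEGFA in the tubule, were also lower in bulls than in calf 1 and calf 2. Without calf 3 all 8 genes of that list were called lower, with a median log2 fold change of −2.02. With all libraries, 1 of the 8 was called lower (median −0.62). In calf 3 they did not go with VEGFA: it was highest in that library, whereas 6 of the 8 were lowest there. Their part in the difference of VEGFA was not tested.

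**Figure D1:**
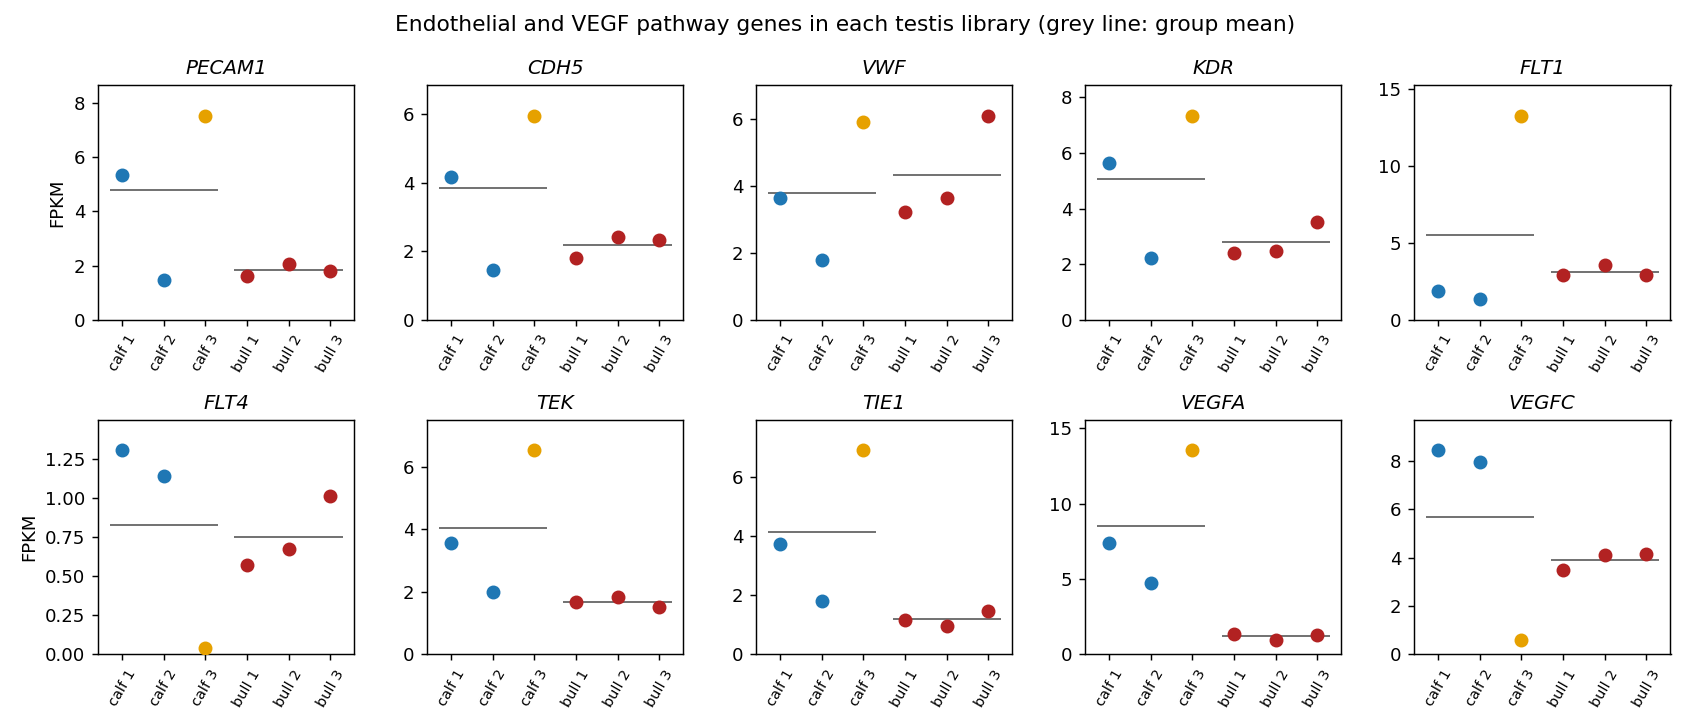
FPKM (linear axis from 0) of each of the 10 genes in the 6 libraries, with calf 1 and calf 2 in blue, calf 3 in orange, bulls in red and a grey line at each group mean. VEGFA is between 4.72 and 13.6 in calves and between 0.966 and 1.35 in bulls, and calf 3 is the highest library for 7 genes and the lowest for FLT4 and VEGFC.

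VEGFC, the ligand of the lymphatic branch, was lower in bulls than in calf 1 and calf 2, while calf 3 lay lowest of all libraries. VEGFC (ENSBTAG00000014737, chromosome 27, 8017950 to 8110540) was measured at an FPKM of 8.44, 7.97 and 0.604 in the 3 calves and of 3.48, 4.11 and 4.16 in the 3 bulls. With all libraries the log2 fold change was −0.067 (SE 0.71, adjusted p = 0.944). Without calf 3 it was −0.91 (SE 0.14, adjusted p = 0.00131), just under the size required for a call, and the mean of calf 1 and calf 2 was 2.10-fold the mean of the bulls. VEGFC was the highest of the 10 genes in calf 1, calf 2, bull 1 and bull 2, and it ranked second to VWF in bull 3.

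The VEGF receptors KDR and FLT4 did not pass the test in either comparison. KDR (ENSBTAG00000000782, chromosome 6, 70564927 to 70612683), the main signalling receptor for VEGFA, was measured at an FPKM of 5.63, 2.20 and 7.35 in the calves and of 2.40, 2.46 and 3.50 in the bulls. Calf 2 lay below every bull, so the groups overlapped, and the log2 fold change was −0.58 (SE 0.39, adjusted p = 0.247), or −0.30 (adjusted p = 0.440) without calf 3. FLT4 (ENSBTAG00000001462, chromosome 7, 496572 to 538024) was the lowest of the 10 genes in every library. Its FPKM was 1.30, 1.14 and 0.0403 in the calves and 0.569, 0.675 and 1.01 in the bulls. The log2 fold change of FLT4 was 0.014 (SE 0.32, adjusted p = 0.975), and −0.35 (SE 0.15, adjusted p = 0.0787) without calf 3.

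FLT1, the decoy-capable VEGF receptor, was the one gene of the 10 whose bulls all lay above calf 1 and calf 2. FLT1 (ENSBTAG00000016915, chromosome 12, 31624125 to 31829369) was measured at an FPKM of 1.84, 1.37 and 13.3 in the calves and of 2.91, 3.55 and 2.90 in the bulls. Calf 3 was 8.26-fold above the mean of the other two calves, the largest such ratio among the 10 genes. The log2 fold change was −0.16 (SE 0.69, adjusted p = 0.862) with all libraries and 0.66 (SE 0.16, adjusted p = 0.00983) without calf 3, under the size required for a call.

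The table of transcripts showed what made up the value of FLT1 in bulls. A gene value there is the sum of its entries, and 3 of the 6 entries of FLT1 carry AS in their names, the usual tag of a transcript antisense to a gene. The tables give no strand, so the tag was not checked. These 3 entries, FLT1-AS1, FLT1-AS2 and FLT1-AS3, lie within chromosome 12, 31635981 to 31699510, inside the FLT1 locus. They summed to an FPKM of 1.45, 1.90 and 0.903 in the bulls, or 50.1%, 53.4% and 31.2% of the gene value. In calf 1 and calf 3 they were listed at 0, and in calf 2 they summed to 0.0302.

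A further entry assembled from the reads (TCONS_00054973, chromosome 12, 31825444 to 31829369) was measured at an FPKM of 0.129, 0.761 and 0.578 in the bulls and of 0, 0.00993 and 0.0445 in the calves. The Ensembl transcripts FLT1-201 and FLT1-202 together gave 1.84, 1.33 and 13.2 in the calves and 1.32, 0.890 and 1.42 in the bulls, so that the bulls were no longer above calf 1 and calf 2. Without the AS entries and without calf 3, the log2 fold change of the gene was 0.061 (SE 0.16, adjusted p = 0.746). The higher gene value in bulls thus came with entries that were not Ensembl transcripts of FLT1. FLT1-202, the longer Ensembl transcript, had a log2 fold change of −1.17 (adjusted p = 0.235), and −0.31 (adjusted p = 0.348) without calf 3.

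**Figure D2:**
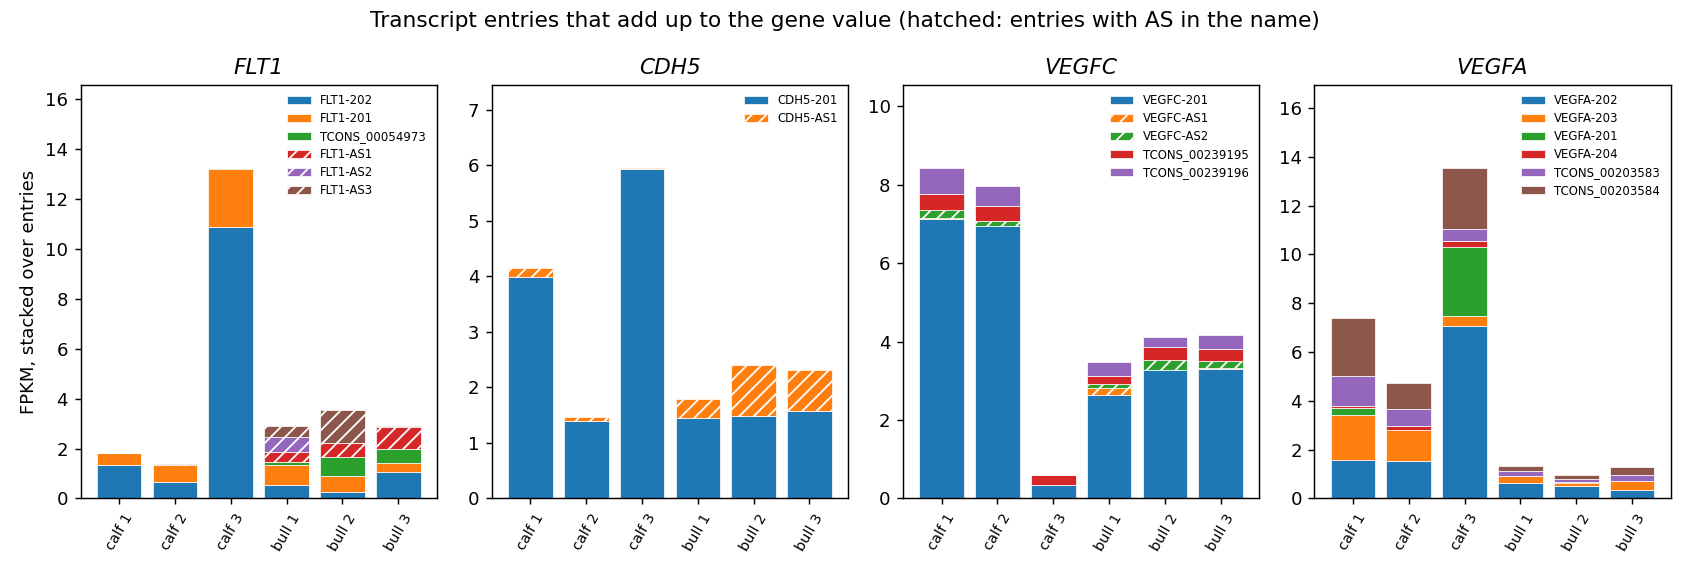
FPKM of the transcript entries of FLT1, CDH5, VEGFC and VEGFA, stacked for each library, with entries whose names carry AS hatched. The hatched entries of FLT1 sum to between 0.903 and 1.90 in bulls and to at most 0.0302 in calves, and that of CDH5 is between 0.350 and 0.916 in bulls.

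The junction gene CDH5 showed the same kind of mixture. CDH5 encodes VE-cadherin, the cadherin of endothelial adherens junctions (ENSBTAG00000007421, chromosome 18, 34102481 to 34220266). Its gene value was 4.15, 1.46 and 5.95 in the calves and 1.79, 2.41 and 2.31 in the bulls, with a log2 fold change of −0.49 (SE 0.40, adjusted p = 0.332), and of −0.17 (SE 0.32, adjusted p = 0.644) without calf 3. The entry CDH5-AS1 spans this whole interval, well beyond CDH5-201, and RefSeq places BEAN1 and TK2 next to CDH5. It had an FPKM of 0.350, 0.916 and 0.744 in the bulls and of 0.166, 0.0652 and 0.0240 in the calves. The entry took up 19.5%, 38.1% and 32.2% of the gene value in the bulls and at most 4.47% in the calves. CDH5-201, the Ensembl transcript, was 3.98, 1.39 and 5.93 in the calves and varied little among bulls (1.44, 1.49 and 1.57). Its log2 fold change was −0.80 (SE 0.40, adjusted p = 0.145), and −0.47 (adjusted p = 0.257) without calf 3.

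PECAM1 and VWF, the other endothelial surface and secreted markers, also overlapped between the groups. PECAM1 (ENSBTAG00000012066, chromosome 19, 48541625 to 48619840), an adhesion molecule of endothelial cells and platelets, was measured at an FPKM of 5.35, 1.46 and 7.55 in the calves and of 1.61, 2.05 and 1.82 in the bulls. Calf 2 was again below all bulls. The main transcript, PECAM1-203 (48549513 to 48619840), also overlaps MILR1 and LOC112442686 in RefSeq, and their part in the gene value was not tested. PECAM1-201, which overlaps PECAM1 alone, was at 1.75, 0.480 and 2.35 in the calves and 0.437, 0.556 and 0.702 in the bulls. The log2 fold change of PECAM1 was −0.86 (SE 0.47, adjusted p = 0.168), or −0.49 (adjusted p = 0.287) without calf 3, and it was called only when calf 2 was left out (−1.39, adjusted p = 0.00641) or after quantile normalization. VWF (ENSBTAG00000012265, chromosome 5, 104221024 to 104345680), which encodes the von Willebrand factor of blood clotting, was measured at an FPKM of 3.64, 1.79 and 5.93 in the calves and of 3.24, 3.65 and 6.12 in the bulls. Its log2 fold change was 0.22 (SE 0.39, adjusted p = 0.666), and 0.53 (adjusted p = 0.168) without calf 3. In bull 3 VWF was the highest of the 10 genes.

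The angiopoietin receptors were lower in each bull than in each calf, and TIE1 passed the test by a narrow margin. TIE1 (ENSBTAG00000003777, chromosome 3, 102694863 to 102714614) was measured at an FPKM of 3.76, 1.82 and 6.92 in the calves and of 1.16, 0.948 and 1.47 in the bulls, with a log2 fold change of −1.12 (SE 0.39, adjusted p = 0.0490). Leaving out calf 3 gave a log2 fold change of −0.75 (SE 0.25, adjusted p = 0.0338), under the size required for a call. The call was also lost without calf 1 or without any one of the bulls, with adjusted p between 0.10 and 0.143 and log2 fold changes between −1.21 and −1.04. TEK (ENSBTAG00000020148, chromosome 8, 17050131 to 17153178) was measured at an FPKM of 3.57, 2.0 and 6.53 in the calves and of 1.67, 1.83 and 1.53 in the bulls. The log2 fold change of TEK was −0.81 (SE 0.35, adjusted p = 0.0929), or −0.47 (adjusted p = 0.0834) without calf 3, and it was not called. Its main transcript, TEK-201, also overlaps IFT74 in RefSeq, and the part of IFT74 in the value was not tested.

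Of the 10 genes, 2 were called lower in bulls (VEGFA and TIE1), where 9.61% of all genes tested were called lower. By limma, 0 of the 10 were called higher, where 35.7% of all genes were, and 0 were higher at an unadjusted p below 0.05. Without calf 3, 1 gene was called lower (VEGFA), against 13.6% of all genes, and 0 were called higher, against 37.9%, while 1 gene (FLT1) was higher at an unadjusted p below 0.05. The median log2 fold change of the 10 genes was −0.54 with all libraries and −0.41 without calf 3, beside medians of 0.43 and 0.43 over all genes tested. The groups did not overlap for 3 of the 10 genes (TEK, TIE1 and VEGFA), against 67.4% of all genes tested, and all 3 had the bulls below (21.3% of all genes). Set against calf 1 and calf 2 alone, all bulls were lower for 5 genes (FLT4, TEK, TIE1, VEGFA and VEGFC; 30.9% of all genes) and higher for FLT1 (53.5% of all genes).

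The scaling of the libraries bears on these counts. Over all genes tested, 6474 were called higher and 1741 lower in bulls, but 3827 and 4538 after quantile normalization, which moved the median log2 fold change of all genes from 0.43 to −0.26. After quantile normalization 6 of the 10 genes were called lower: VEGFA, TIE1, PECAM1, TEK, CDH5 and KDR, with log2 fold changes from −2.82 to −1.26.

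**Figure D3:**
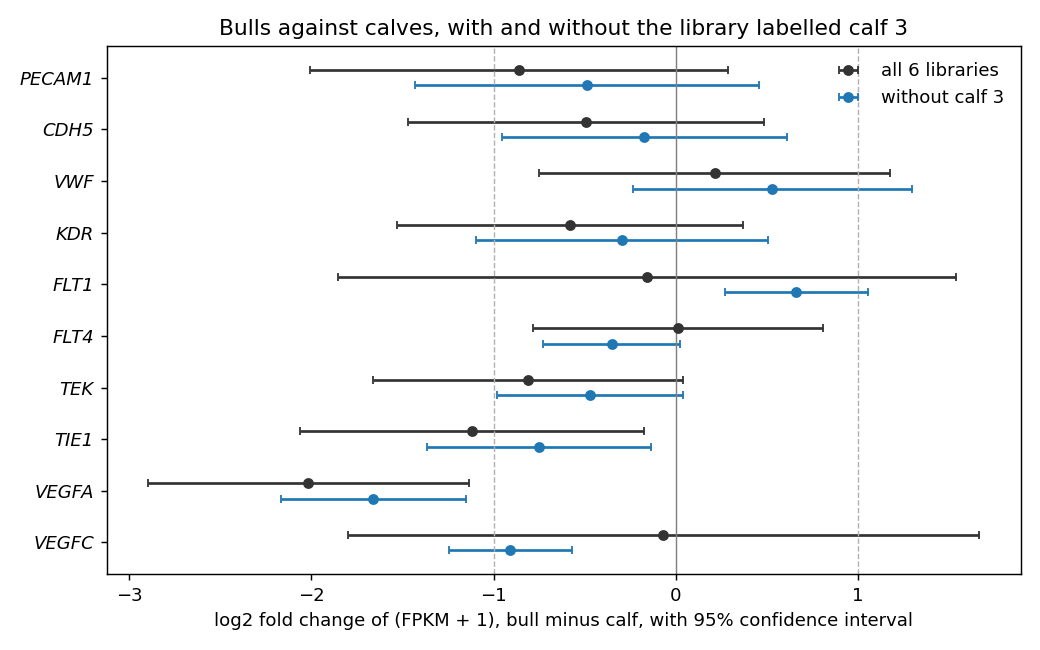
Log2 fold change of (FPKM + 1), bull minus calf, of the 10 genes with 95% confidence intervals from limma, for all 6 libraries (black) and without calf 3 (blue); dashed lines mark the size required for a call. Only for VEGFA do both intervals lie wholly below −1.

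Ratios between genes of one library do not depend on the scaling of that library, and 8 of them were compared by an exact permutation test (two-sided, 20 labelings, smallest p 0.1). VEGFA to KDR, ligand to receptor, was 1.31, 2.14 and 1.84 in the calves and 0.561, 0.393 and 0.366 in the bulls. The calves had a mean log2 ratio of 0.79 ± 0.36 (SD, n = 3), and the bulls one of −1.21 ± 0.33 (SD, n = 3), a difference of −2.0 (exact p = 0.1, adjusted p = 0.2). The groups did not overlap, and the difference was −1.96 without calf 3. Over the Ensembl transcripts alone the ratio was 0.675, 1.34 and 1.44 in the calves and 0.206 to 0.382 in the bulls, a log2 difference of −1.97. VWF to PECAM1 was 0.680, 1.22 and 0.786 in the calves and 2.02, 1.78 and 3.36 in the bulls, a log2 difference of 1.40 (exact p = 0.1, adjusted p = 0.2), and of 1.33 without calf 3.

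VEGFC to FLT4 was 6.47, 6.98 and 15.0 in the calves and 6.12, 6.09 and 4.12 in the bulls, a log2 difference of −0.71 (exact p = 0.1, adjusted p = 0.2) that was −0.33 (exact p = 0.3) without calf 3. Over the Ensembl transcripts alone, this ratio overlapped between the groups, with 6.85 in bull 1 against 5.48 in calf 1. CDH5 to PECAM1 did not overlap either (0.775, 0.996 and 0.789 in the calves, 1.11, 1.18 and 1.27 in the bulls). Over the Ensembl transcripts alone it did, with 0.744 to 0.951 in calves and 0.728 to 0.896 in bulls and a log2 difference of 0.0054 (exact p = 1). FLT1 to KDR, TIE1 to TEK, KDR to PECAM1 and ANGPT2 to ANGPT1 overlapped, with exact p between 0.2 and 0.8 and adjusted p between 0.32 and 0.8. FLT1 to KDR was 0.327 and 0.622 in calf 1 and calf 2, 1.81 in calf 3 and 0.829 to 1.44 in the bulls, and over the Ensembl transcripts alone the bulls were at 0.362 to 0.550.

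**Figure D4:**
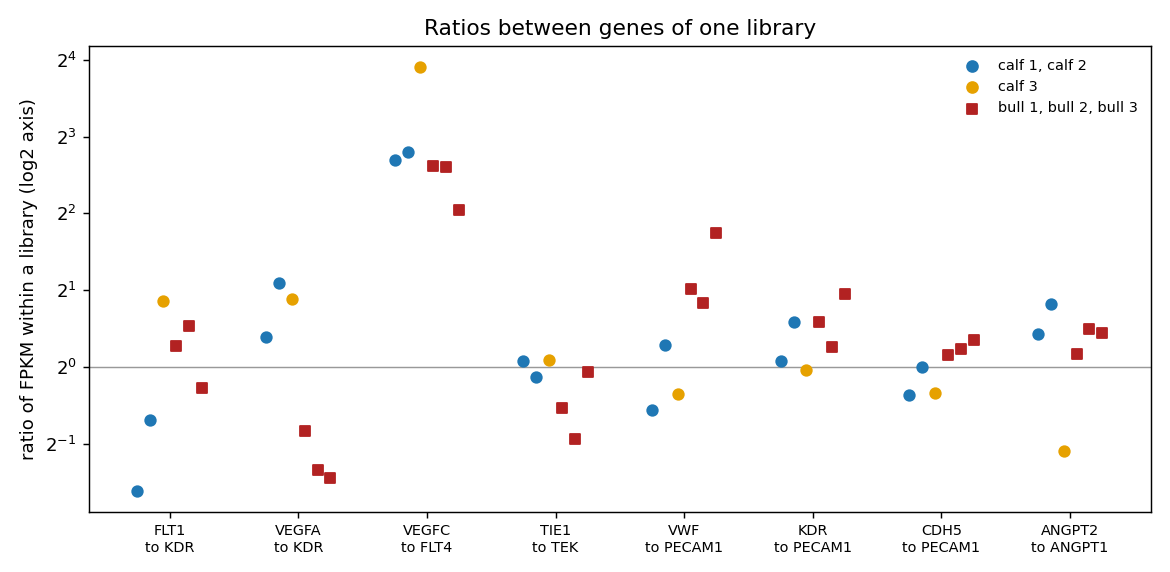
Ratio of the FPKM of 2 genes within each library on a log2 axis, for 8 pairs, with calf 1 and calf 2 as blue circles, calf 3 as an orange circle and bulls as red squares. For VEGFA to KDR the calves lie at 1.31 to 2.14 and the bulls at 0.366 to 0.561, and for VWF to PECAM1 the bulls (1.78 to 3.36) lie above the calves.

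Of the 6 entries of VEGFA, 2 passed the filter, and both had all bulls below all calves, as did 20.8% of the entries tested in the whole table, and 1 was called. Both entries were below an FPKM of 1 in every bull, so they passed the filter only through the calves. The filter thus fixed that all bulls lay below all calves, and both entries could only come out lower. Their order therefore cannot be weighed against the 20.8%. The table of transcripts lists 32 entries for the 10 genes, 20 of them Ensembl transcripts, and 11 passed the filter. The entry called was an assembled transcript of VEGFA (TCONS_00203584), with an FPKM of 2.37, 1.07 and 2.51 in the calves and of 0.228, 0.158 and 0.303 in the bulls. Its log2 fold change was −1.24 (SE 0.23, adjusted p = 0.00486), and −1.10 (adjusted p = 0.00823) without calf 3. In the table of transcripts 9.37% of the entries tested were called lower, and 13.1% without calf 3. VEGFA-202 was 1.56, 1.51 and 7.06 in the calves and 0.624, 0.499 and 0.348 in the bulls, a log2 fold change of −1.33 (SE 0.48, adjusted p = 0.0581). Leaving out calf 3 gave −0.77 (adjusted p = 0.00429), too small in size for a call.

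The makeup of VEGFA differed between calf 3 and the other calves. VEGFA-203 reached an FPKM of 1.85 in calf 1, 1.30 in calf 2 and 0.406 in calf 3, where VEGFA-202 made up 52.1% of the gene value, against 21.1% and 32.1%. VEGFA-201 was listed at 0 in calf 2 and in all bulls and reached 2.84 in calf 3. In the bulls VEGFA-202 made up 46.2%, 51.7% and 27.2%. For PECAM1, the share of its main transcript PECAM1-203, which also overlaps MILR1, lay between 59.7% and 72.4% in all libraries.

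Calf 1 and calf 2, both with Sertoli and Leydig cell genes, differed in their endothelial genes. All 10 genes were higher in calf 1, and 5 of them (PECAM1, CDH5, KDR, TIE1 and VWF) at least 2-fold, with ratios of 3.66, 2.85, 2.55, 2.07 and 2.03. Over all genes tested, 9.7% were at least 2-fold higher in calf 1, and the median ratio was 0.926. VEGFC and FLT4 had ratios of 1.06 and 1.14. Of 13 tested genes in a list of other endothelial surface genes, 4 were at least 2-fold higher in calf 1, and of 8 tested genes of pericytes and mural cells 0 were. With 1 library per animal, this difference has no replicate check, and the part of sampling or of the animal was not tested.

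Calf 3 was the highest of the 6 libraries for 7 of the 10 genes, where 21.9% of all genes tested were highest in it. The 7 were PECAM1, CDH5, KDR, FLT1, TEK, TIE1 and VEGFA, while VWF was highest in bull 3 (6.12, against 5.93 in calf 3). PECAM1, CDH5, VWF, KDR, TEK, TIE1 and VEGFA lay 1.88-fold to 2.48-fold above the mean of calf 1 and calf 2, and FLT1 lay 8.26-fold above it. FLT4 and VEGFC, the lymphatic pair, were 30.3-fold and 13.6-fold lower in calf 3 than in that mean, and 35.3% of all genes tested were lowest in calf 3. Of 6 tested genes of blood-brain barrier endothelium, 1 rose in bulls (SLCO1C1, a thyroid hormone transporter; 1.39, adjusted p = 0.00689), and 2 did without calf 3, when SLC7A5, an amino acid transporter, was called as well (1.39, adjusted p = 0.00208; 0.94, adjusted p = 0.114 with all libraries). SLCO1C1 was below an FPKM of 1 in every calf, so it passed the filter only through the bulls and could only come out higher. Of the 8 listed genes, 4 were highest and 1 was lowest in calf 3. SLC2A1, the glucose transporter of barrier endothelium and red blood cells, had an FPKM of 48.6 in calf 3 and of 4.50 to 5.88 in the other 5 libraries. MFSD2A, a lipid transporter of that barrier, was at 14.0 against 1.42 to 2.72, and the transcription factors FOXF2 and FOXQ1 were at 3.32 and 1.23, against at most 0.375 and 0.0836. LSR, a receptor of tricellular junctions, was lowest in calf 3 (3.16 against 6.98 to 9.89). SLC7A5 (23.2) and SLCO1C1 (0.995) lay above the other calves and below the bulls, and SLC19A3, a thiamine transporter, stood at 2.98 within a range of 1.39 to 3.48 elsewhere. PROX1, a transcription factor of lymphatic endothelium and of other tissues, was 9.40 in calf 3 and 0.586 to 2.16 elsewhere, while the lymphatic chemokine CCL21 was listed at 0.

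Of 3 tested genes among the other VEGF ligands and co-receptors, 1 fell in bulls, NRP2 with all libraries and NRP1 without calf 3. NRP1, a co-receptor of VEGFA, had an FPKM of 25.8, 16.9 and 5.99 in the calves and of 7.28, 10.9 and 9.39 in the bulls; without calf 3 its log2 fold change was −1.12 (adjusted p = 0.00489), and with it −0.57 (adjusted p = 0.374). NRP2, a co-receptor of VEGFC, was called lower in bulls (−1.07, adjusted p = 0.0285), with 6.99, 5.63 and 13.2 against 3.32, 3.09 and 3.65, and had −0.74 without calf 3. VEGFB was at 3.58, 3.14 and 10.2 in the calves and 2.03, 1.72 and 1.43 in the bulls (−1.13, adjusted p = 0.0561), with −0.68 (adjusted p = 0.00830) without calf 3. VEGFD, the other ligand of FLT4, and PGF, a ligand of FLT1, did not pass the filter. VEGFD was at 3.03, 1.38 and 0.0142 in the calves and at most 0.0813 in the bulls, and PGF was at 0.956 to 1.97 in the calves and 0.140 to 0.191 in the bulls.

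Of 4 tested genes of the angiopoietin list, 0 were called by limma in either direction, while 2 were higher at an unadjusted p below 0.05. ANGPT1, the activating ligand of TEK, had an FPKM of 1.70, 1.13 and 1.82 in the calves and of 3.17, 2.87 and 2.55 in the bulls, a log2 fold change of 0.61 (SE 0.18, adjusted p = 0.0273). ANGPT2, its context-dependent antagonist, was at 2.29, 2.01 and 0.856 in the calves and 3.57, 4.06 and 3.47 in the bulls (0.83, SE 0.26, adjusted p = 0.0339). For both ligands all bulls lay above all calves (46.1% of all genes tested), but neither reached the size required for a call, with or without calf 3. PTPRB, a phosphatase that acts on TEK, was at 2.44, 2.19 and 8.72 in the calves and 1.6, 2.55 and 2.76 in the bulls, and ANGPT4 had a log2 fold change of −0.032 (adjusted p = 0.963). SVEP1, at 1.61, 1.03 and 0.914 in the calves and 0.184 to 0.234 in the bulls, did not pass the filter.

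**Figure D5:**
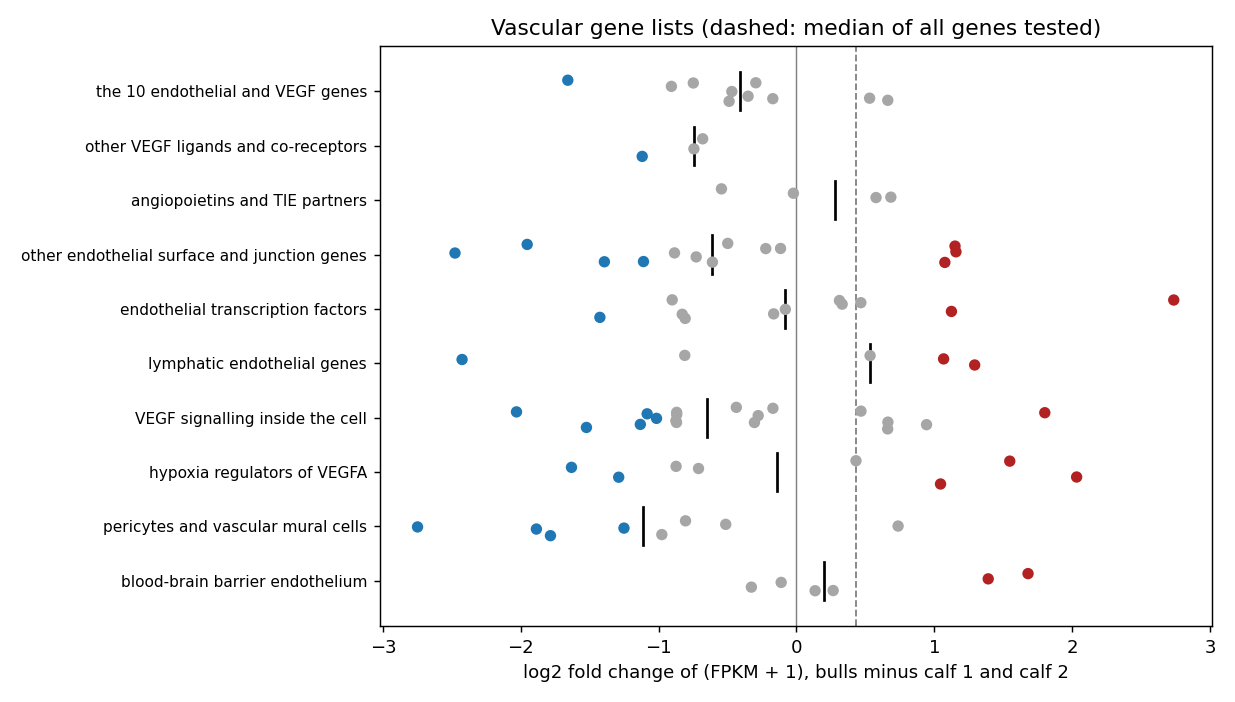
Log2 fold change of (FPKM + 1), bulls minus calf 1 and calf 2, of each tested gene in the vascular lists (red called higher, blue called lower, grey not called), with a black bar at the list's median and a dashed line at the median of all genes tested (0.43). The median of the pericyte and mural cell list is −1.11 and that of the 10 endothelial and VEGF genes is −0.41. The pericyte list includes NOTCH3 and CSPG4, which passed the filter only through the calves.

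In the list of other endothelial surface and junction genes, 2 of 13 tested genes rose and 4 fell in bulls, with a median log2 fold change of −1.07 (3 and 4, with a median of −0.61, without calf 3). The counts of each gene list stand beside 35.7% called higher and 9.61% called lower among all genes tested (37.9% and 13.6% without calf 3). CLDN5, the tight junction claudin of endothelium that Sertoli cells also express, fell most, from 24.0, 31.9 and 54.7 in the calves to 4.6, 3.96 and 3.91 in the bulls (−2.80, adjusted p = 0.000541). ACVRL1, a BMP9 receptor of endothelial cells, and ROBO4 fell by 1.47 and 1.44 on the log2 scale. CD34, a marker of endothelium and of interstitial cells, rose from 9.11, 4.94 and 3.37 to 17.8, 12.7 and 19.0 (1.43, adjusted p = 0.0142). These calls of CLDN5, ACVRL1, ROBO4 and CD34 were also made without calf 3.

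Of 11 tested endothelial transcription factors, 2 rose and 1 fell, with and without calf 3. Over all genes tested, 35.7% rose and 9.61% fell (37.9% and 13.6% without calf 3), so these counts do not set the list apart. KLF4, which spermatids and other cells also express, rose most (3.09, adjusted p = 0.000434), from 1.94 to 5.57 in the calves to 36.6 to 43.2 in the bulls. TAL1 rose (1.05, adjusted p = 0.00417) and LMO2, its partner in blood and endothelial cells, fell (−1.67, adjusted p = 0.00363). In the lymphatic list, RELN rose (1.78, adjusted p = 0.0175) and PDPN fell (−2.0, adjusted p = 0.00702) among 5 genes tested. PDPN was below an FPKM of 1 in every bull, so it passed the filter only through the calves and could only come out lower. Without calf 3, 2 rose and 1 fell, the further rise being that of CCBE1, a secreted factor of lymphatic growth that helps VEGFC to mature (1.07, adjusted p = 0.00300; 1.80, adjusted p = 0.0529 with all libraries).

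Among genes of pericytes and mural cells, which wrap the endothelial tube, 5 of 8 tested fell in bulls, with a median log2 fold change of −1.15. Without calf 3, 4 of 8 fell (−1.11). Among the 5 was PDGFB (−1.04, adjusted p = 0.00581), which is made by endothelial cells and is not itself a marker of pericytes. By limma, 0 of the 8 rose, and 0 were higher at an unadjusted p below 0.05, with and without calf 3. All bulls lay below all calves for 6 of the 8 (21.3% of all genes tested) and above them for 1 (46.1%). That gene was ABCC9, at 1.72, 1.92 and 2.54 in the calves and 2.66, 6.75 and 2.65 in the bulls (0.63, adjusted p = 0.168). NDUFA4L2, which did not pass the filter, was also higher in every bull (0.957 to 1.90) than in every calf (0.243 to 0.883). The 8 Sertoli cell genes, all called lower without calf 3 (median −2.02), moved in the same direction, and their part in the result was not tested. PDGFRB, the receptor through which endothelial PDGFB recruits pericytes and which other interstitial cells also carry, fell from 24.5, 22.2 and 7.31 to 2.77, 2.27 and 2.84 (−2.23, adjusted p = 0.00685). NOTCH3 fell by 2.03 and CSPG4, the NG2 proteoglycan, by 1.66 on the log2 scale (adjusted p = 0.000408 and 0.000938). Both were below an FPKM of 1 in every bull. They passed the filter only through the calves and could only come out lower. The medians of this list, and its counts of genes that fell or had all bulls below all calves, include both. These counts and medians therefore cannot be weighed against the shares of all genes or against the other lists.

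Among 8 genes that sense oxygen and control VEGFA, 1 rose and 3 fell (3 and 2 without calf 3). HIF1A, the oxygen-regulated activator of VEGFA, fell (−1.18, adjusted p = 0.0137) from 17.7, 19.5 and 36.2 to 9.64, 9.94 and 9.52, and had −0.87 without calf 3. EGLN1, the main prolyl hydroxylase that marks HIF1A for breakdown, fell as well (−1.72, adjusted p = 0.000235), whereas its paralog EGLN2 rose (2.07, adjusted p = 8.60e-05) from 23.7 to 26.3 in the calves to 98.8 to 117 in the bulls. ARNT, the partner of HIF1A, fell (−1.04, adjusted p = 0.0136), and so it did without calf 3 (−1.29). EPAS1, the HIF subunit typical of endothelium, was at 3.79, 2.04 and 30.6 in the calves and 9.69 to 10.7 in the bulls, and was called higher only without calf 3 (1.55, adjusted p = 0.000816). Inside the cell, 1 of 18 tested genes of VEGF signalling rose and 2 fell (1 and 5 without calf 3). MAPK3 rose (1.65, adjusted p = 0.00165), and PIK3R1 and MAP2K1 fell (−1.76 and −1.45, adjusted p = 0.00124 and 0.0233); these kinases and adaptors serve many receptors.

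The genes whose levels over the 6 libraries were most like the mean profile of the 8 endothelial markers and receptors (Euclidean distance of centred log2(FPKM + 1), 13615 genes compared) were KLHL6, RF00026, PALM2, PWWP2A and bta-mir-2285cw-1. KLHL6, the nearest at a distance of 0.171, had an FPKM of 1.44, 0.473 and 2.51 in the calves and 0.633, 0.821 and 1.06 in the bulls. RF00026 and bta-mir-2285cw-1 belong to families of small RNA with many similar copies, so their values are uncertain. Of the 8 genes, CDH5 (0.272) and KDR (0.313) lay nearest to their mean profile, and FLT4 (1.81) and FLT1 (1.38) farthest from it.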

How the data were processed

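RNA of 3 calves and 3 bulls, described in the paper as testis RNA, was sequenced, with 1 library per animal. The paper describes filtering for quality, removal of ribosomal reads (Bowtie2), mapping (TopHat2) and assembly (StringTie). The tables deposited by the authors list FPKM of genes and of transcripts, 1 column per library. The tool that made these values is not given in the sources used here, the tables hold no counts, and the libraries were not rescaled to a common total (sums of FPKM from 587066 to 1098720). The Methods name the build UMD 3.1.1, but all 10 genes overlapped the RefSeq locus of the same symbol on ARS-UCD2.0, so positions are printed as the tables give them, without a stated build. No sequence of these genes was used here.

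Values were transformed to log2(FPKM + 1), and features that reached an FPKM of 1 in 3 or more libraries were fitted with limma 3.58.1 (empirical Bayes with trend, two-sided) in R 4.3.3, with Benjamini-Hochberg adjustment over all features. Python 3.11.15 and matplotlib 3.10.9 drew the plots. The procedure was tested on simulated data. Ratios within a library were compared by exact permutation. The alternatives were the pseudocount, the filter, the scaling, weights, the variance prior, a replicate block and leaving out each library. The settings without AS or OT entries, with Ensembl transcripts alone, and with rescaling in the absence of calf 3 were added after the values were seen. The members and gene lists were chosen with earlier results of these data known. Named from each list were the called genes with the largest rise and fall and up to 2 more by size, plus any ligand, co-receptor, angiopoietin or barrier gene. PROX1, CCL21, CCBE1 and EPAS1 were named after their values were seen. List symbols FIGF, ICAM2, ABCB1, ITM2A and HBA1 had no row of that name.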

Additional observations from a re-analysis of the deposited data

How the results depend on the processing

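The call of VEGFA held under each alternative in which it was tested, and it could not be tested with a filter of FPKM at least 5. The count of the 10 genes called lower in bulls, 2 with all libraries, was 1 without the filter, with median-ratio scaling, with array weights, with Ensembl transcripts alone, and without calf 3 under median-ratio scaling or without AS and OT entries, and 0 with the filter of FPKM at least 5. It was 6 after quantile normalization with calf 3, and also 6 without it (FLT4 and VEGFC in place of CDH5 and KDR), and from 1 to 4 with each library left out in turn (4 without calf 2: VEGFA, TIE1, PECAM1 and TEK). Entries of these genes called in the table of transcripts numbered 1, but 2 with a pseudocount of 0.1 or 0.5, 2 with the replicate block, 2 with median-ratio scaling without calf 3, 0 with the filter of FPKM at least 5, 7 and 8 after quantile normalization with and without calf 3, and 1 to 5 with a library left out. Over the whole table, 4028 genes were called higher and 1028 lower with the filter of FPKM at least 5, 3827 and 4538 after quantile normalization, 4062 and 5275 after it without calf 3, 3511 higher with Ensembl transcripts alone and 2710 lower with median-ratio scaling without calf 3. With a library left out, 6034 to 6859 were called higher and 1218 to 2466 lower. Log2 fold changes that turned in sign, none of them called with all libraries, were those of VWF (−0.35 after quantile normalization and −0.0550 after it without calf 3), FLT1 (0.62 with array weights, and without calf 3 0.60 with median-ratio scaling and 0.061 without AS and OT entries), FLT4 (−0.86 after quantile normalization, −1.13 after it without calf 3, −0.33 with array weights, −0.40 with median-ratio scaling without calf 3, −0.045 without AS and OT entries or with Ensembl transcripts alone, −0.41 without those entries and calf 3) and VEGFC (0.13 and 0.010 with pseudocounts of 0.1 and 0.5). With a library left out, VWF ranged from −0.13 to 0.53, FLT1 from −0.63 to 0.66, FLT4 from −0.35 to 0.22 and VEGFC from −0.91 to 0.37. The ratio of ANGPT2 to ANGPT1 (log2 difference 0.32) ranged from −0.26, without calf 3, to 0.70. The cause of these changes was not tested. The labels number the libraries 1 to 3 in both groups. The deviations of same-numbered libraries correlated by 0.0277, 0.0246 and 0.0341, each library best with its own number. The labels do not say what the numbers stand for, and whether same-numbered samples share more than a number was not tested. With the replicate block, 6437 genes were called higher and 1691 lower, and 2 of the 10 genes were called lower. The number of fragments behind genes with an FPKM near 1, such as FLT4, is unknown.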
